A study of Mus musculus with 12 samples.

Results

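The 9 genes described here belong to the melanocyte, the pigment cell of the skin. They are Mitf, Mc1r, Tyr, Tyrp1, Dct, Pmel, Mlana, Oca2 and Slc45a2. They were taken by symbol from the read counts of 12 mouse scars, which listed 35976 genes. The genes were chosen as known melanocyte genes, with earlier results of these data already known. All 9 passed the filter on low counts that left 18853 genes for testing.

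Melanocytes make melanin in organelles called melanosomes and pass it to neighbouring keratinocytes. In the haired back skin of mice they sit mainly in the hair follicle, where they make pigment while the hair grows and stop when the follicle regresses. The transcription factor MITF, itself driven by SOX10 and PAX3, activates the genes of the melanosome, and the receptor MC1R sets how much black pigment is made. Tyrosinase carries out the first step of melanin synthesis, and the other members build the melanosome or set its chemistry.

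Scars of 3 male mice were sequenced in each of 4 groups, which combined the Tem1WT/WT or Tem1lacZ/lacZ genotype with sham or traction treatment. Tem1, listed in the counts as Cd248, encodes a membrane protein of fibroblasts and pericytes, and in Tem1lacZ/lacZ mice its only exon is replaced by a lacZ reporter in every cell of the body. This line was backcrossed to the black C57BL/6J strain, on which the scar model was set up. Mice were 8 to 12 weeks old, hair was removed from the back, a 1.5-cm wound was cut, and a device was placed on it on day 6 and elongated by 1 mm per day to 8 mm under traction or left without elongation in sham mice. The phase of the hair cycle is not given in the sources used here, and a scar sample holds skin cells of many types.

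Library totals were between 41536788 and 64644293 counts. Cd248 was between 92.4 and 337 CPM, the counts scaled to a library of standard size, in the 6 Tem1WT/WT scars and between 0 and 0.248 CPM in the 6 Tem1lacZ/lacZ scars, so each library carried the Cd248 level of its labelled genotype. Of other cell types, marker sums of neutrophils set 1 library apart, with 7457 CPM in Tem1WT/WT traction replicate 1 against 629 CPM or less in the other 11. Adipocyte markers summed to 2560 CPM in Tem1lacZ/lacZ sham replicate 1 and to 1560 CPM or less elsewhere.

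MITF binds DNA at the 6-base E-box, and a longer form with extra flanking letters, the M-box, is known from the promoters of pigment genes. Promoter sequences from RefSeq on GRCm38.p6 were at hand for 6 of the 9 members: Tyr, Tyrp1, Dct, Mc1r, Oca2 and Mitf. Pmel, Mlana and Slc45a2 were not among them. In the 250 bases before each start, both strands were searched for the E-box cores CATGTG and CACGTG and for the M-box, which is the core CATGTG with AGT directly before it and CT directly after it, so the searches overlap. The following stretches are shown because they carry these letters, in capitals for the E-box core on either strand. For Tyr and Dct the whole 250 bases are given, ending at the base before the start, and for the others 30 bases around the core.

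Tyr, chr7:87493513-87493762, minus strand: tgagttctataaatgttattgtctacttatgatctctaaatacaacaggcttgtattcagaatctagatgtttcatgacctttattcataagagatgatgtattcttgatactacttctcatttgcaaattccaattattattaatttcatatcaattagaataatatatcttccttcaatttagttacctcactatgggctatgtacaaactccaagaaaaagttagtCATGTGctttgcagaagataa
Dct, chr14:118052247-118052496, minus strand: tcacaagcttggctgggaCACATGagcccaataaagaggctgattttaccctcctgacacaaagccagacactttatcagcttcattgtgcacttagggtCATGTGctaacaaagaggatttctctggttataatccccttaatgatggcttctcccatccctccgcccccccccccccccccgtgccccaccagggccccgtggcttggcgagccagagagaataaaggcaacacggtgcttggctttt
Tyrp1, chr4:80834155-80834184, plus strand: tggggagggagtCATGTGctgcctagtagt
Mc1r, chr8:123407013-123407042, plus strand: tccctggCACATGcccatCATGTGgccacc
Oca2, chr7:56239561-56239590, plus strand: ttgagcttgctaCACATGgctggaattttc

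Tyr and Tyrp1 held the full M-box, which begins 24 bases before the start of Tyr and 49 bases before that of Tyrp1. Only 7 of the 32851 promoter windows in the table (0.0213%) held it. Because the M-box was already known from promoters of pigment genes, this share is no test of the members. The core CATGTG is common, with 4025 windows (12.3%), and CACGTG was found in 1978 windows (6.02%). An E-box core was present in 5 of the 6 members with a window, and in Dct and Mc1r it occurred at 2 places each. The 3 annotated starts of Mitf had none in these windows. The Tyrp1 stretch lies within a gene model that GENCODE vM21 begins further upstream. A match is a description of the letters and not a measured binding site.

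To compare genes with each other, counts were also scaled by exon length as FPKM, fragments per kilobase of exon in a library of standard size. Over the 12 scars the mean FPKM was 29.6 ± 23.9 for Pmel, 29.1 ± 23.0 for Tyrp1, 13.4 ± 9.73 for Dct, 9.62 ± 6.17 for Mlana and 7.92 ± 2.51 for Mitf (SD, n = 12). It was 3.33 ± 3.02 for Tyr, 2.03 ± 1.71 for Slc45a2, 1.73 ± 1.5 for Oca2 and 0.818 ± 0.716 for Mc1r. Neighbours in this order differed by less than the smaller of their SDs, except for Tyrp1 and Dct, Mitf and Tyr, and Oca2 and Mc1r. The spread was large in each member but Mitf, whose highest scar was 2.33 times its lowest.

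Replicates 1, 2 and 3 are given in this order throughout, as TMM-normalized CPM. Traction was compared with sham to ask how mechanical load on the scar, and Tem1, bear on its transcripts. In Tem1WT/WT mice each of the 9 members was lower under traction than in sham scars, by 1.65-fold for Mitf and by 3.21-fold to 4.16-fold for the other 8. Mlana and Mitf fell past the threshold, an adjusted p under 0.05, which makes 2 of 9, where 9.15% of all genes tested passed it in either direction and 3.54% as lower. The sham and traction scars did not overlap in Mlana, Mitf and Dct, or 3 of 9, where 18% of all genes were lower without overlap. In Tem1lacZ/lacZ mice 0 of 9 passed the threshold, like 0% of all genes, and sham and traction overlapped in each of the 9, where 12.9% of all genes had no overlap. In bulk tissue, fewer melanocytes and less RNA per melanocyte cannot be told apart.

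**Figure D1:**
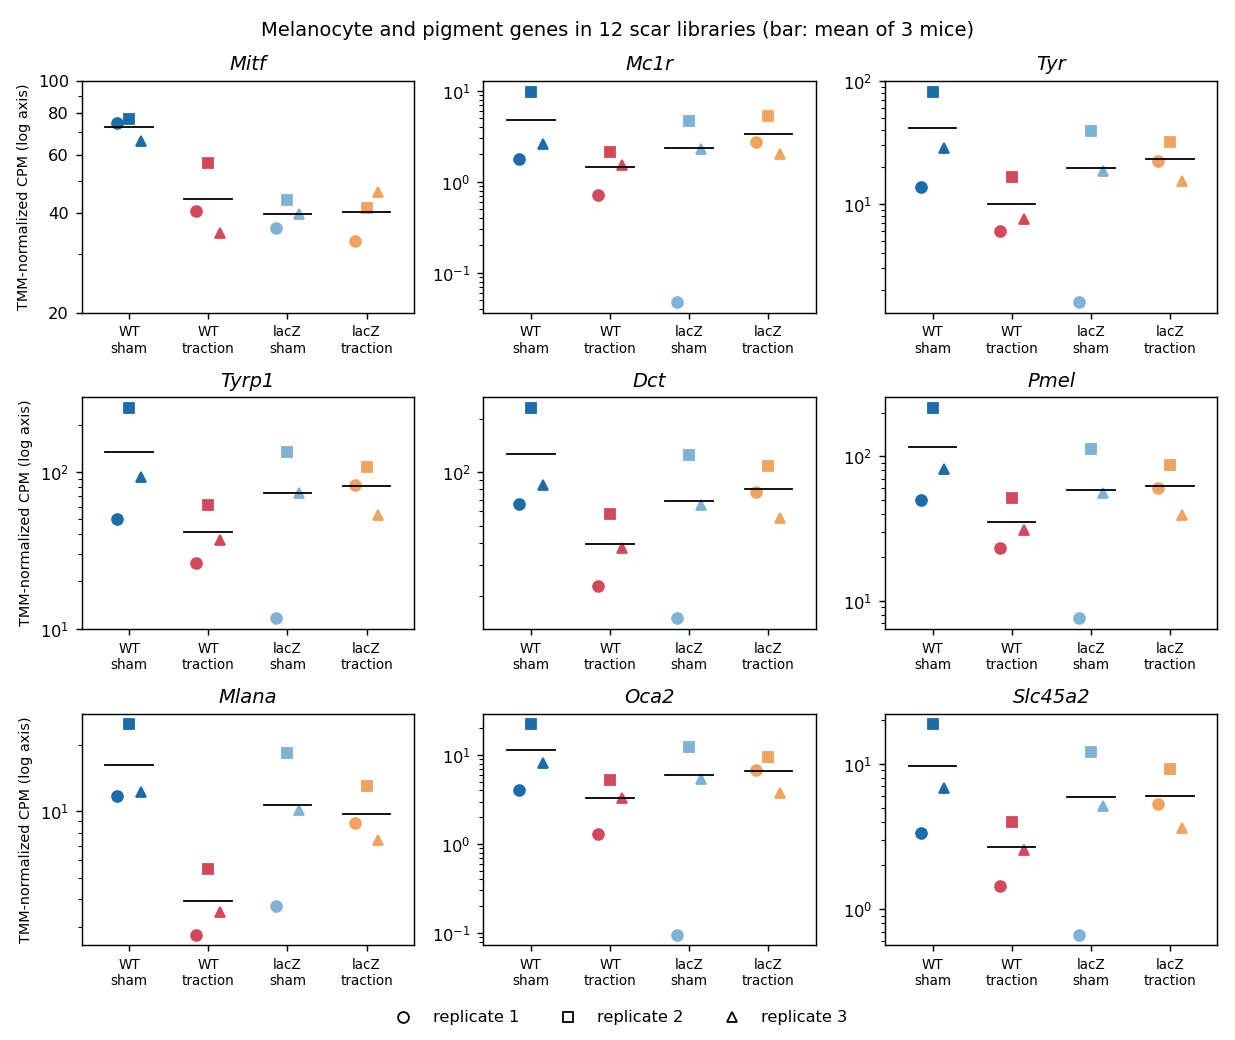
TMM-normalized CPM (log axis, with its own range in each panel) of the 9 members in each of the 12 scars, with circles, squares and triangles for replicates 1, 2 and 3 and a bar for the mean of 3 mice. Mitf and Mlana are lower in all 3 Tem1WT/WT traction scars than in the 3 sham scars, and Tem1lacZ/lacZ sham replicate 1 is the lowest scar for 7 of the 9 genes.

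Mitf (Entrez 17342, chr6:97807052-98021349, plus strand, GRCm38) encodes the master transcription factor of the melanocyte lineage and is also used by mast cells and macrophage relatives. In Tem1WT/WT scars it was at 74.7, 76.6 and 66.0 CPM after sham and at 40.5, 56.7 and 34.8 CPM after traction. The groups did not overlap, and the log2 fold change was -0.72 (SE 0.19, 95% interval -1.14 to -0.30, adjusted p = 0.0431, edgeR's quasi-likelihood test with Benjamini-Hochberg adjustment). In Tem1lacZ/lacZ scars Mitf was at 36.0, 43.7 and 39.6 CPM after sham and at 32.8, 41.4 and 46.2 CPM after traction. These 6 scars all lay below the lowest Tem1WT/WT sham scar, and the log2 fold change of traction was 0.01 (SE 0.19). Macrophage markers summed to between 2569 and 4261 CPM in the Tem1WT/WT sham scars and between 4018 and 4794 CPM under traction, with 0 of 10 markers at 0 counts. Mast cell markers summed to between 194 and 293 CPM after sham and to 1289, 194 and 184 CPM under traction. Of the 1289 CPM in replicate 1, Hdc alone gave 1009 CPM, and this was also the library with 7457 CPM of neutrophil markers. With traction in Tem1WT/WT mice, 6 of the 12 mast cell genes had lower estimates and 6 had higher ones. The part of these cells in the level of Mitf was not tested.

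Mc1r (Entrez 17199, chr8:123407107-123410744, plus strand) encodes the melanocortin receptor, which raises MITF and black pigment. It was the lowest member per length. Its CPM was 1.80, 9.82 and 2.59 in Tem1WT/WT sham scars and 0.714, 2.12 and 1.54 under traction, where the groups overlapped. In Tem1lacZ/lacZ mice it was 0.0476, 4.65 and 2.32 after sham and 2.74, 5.34 and 2.04 after traction. The first of these sham values rests on 2 counts. Its single annotated exon block overlaps Gm38092 on the opposite strand, and the strand setting of the counting was not stated.

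Tyr, Tyrp1 and Dct are the enzymes of melanin synthesis. Tyr (Entrez 22173, chr7:87424771-87493512, minus strand) encodes tyrosinase, without which no melanin forms. It was at 13.8, 82.3 and 28.6 CPM in Tem1WT/WT sham scars and at 6.02, 16.6 and 7.56 CPM under traction. In Tem1lacZ/lacZ scars Tyr was at 1.59, 39.1 and 18.7 CPM after sham and at 22.4, 32.1 and 15.3 CPM after traction. The lowest sham scar of Tem1WT/WT mice lay below the highest traction scar, so the groups overlapped.

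Tyrp1 (Entrez 22178, chr4:80834123-80851719, plus strand) encodes a tyrosinase-related enzyme that acts late in the making of black pigment. Its levels were 50.0, 257 and 93.1 CPM after sham and 26.3, 61.9 and 36.5 CPM after traction in Tem1WT/WT mice. The corresponding Tem1lacZ/lacZ values were 11.6, 134 and 73.3 CPM, and 82.5, 108 and 53.0 CPM. Tyrp1 overlapped between sham and traction in both genotypes.

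Dct (Entrez 13190, chr14:118012790-118052244, minus strand) encodes dopachrome tautomerase, which acts between the other enzymes and is also a marker of melanocyte precursors. It stood at 66.3, 230 and 84.3 CPM after sham and at 22.9, 57.9 and 37.2 CPM after traction in Tem1WT/WT mice, without overlap. Its log2 fold change was -1.69 (SE 0.69), which missed the threshold with an adjusted p of 0.124 in edgeR's quasi-likelihood test. In Tem1lacZ/lacZ mice Dct was at 15, 125 and 65.6 CPM after sham and at 77.1, 109 and 55.3 CPM after traction.

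Pmel and Mlana build the melanosome. Pmel (Entrez 20431, chr10:128704195-128720238, plus strand) encodes the protein that forms the fibrils on which melanin is laid down. Its levels in Tem1WT/WT scars were 50.0, 216 and 81.5 CPM after sham and 23.0, 51.1 and 30.7 CPM after traction, with an overlap between replicate 1 of the sham group and replicate 2 of the traction group. In Tem1lacZ/lacZ scars Pmel was at 7.54, 112 and 55.3 CPM after sham and at 60.5, 87.3 and 39.4 CPM after traction. Exons of Pmel overlap Cdk2 and Dgka on the opposite strand, with the same limit as for Mc1r.

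Mlana (Entrez 77836, chr19:29697824-29708634, plus strand) encodes MART-1, a partner of PMEL in the early melanosome. Its levels in Tem1WT/WT mice were 11.8, 24.8 and 12.3 CPM after sham and 2.76, 5.48 and 3.51 CPM after traction. All 3 traction scars were below all 3 sham scars, and Mlana fell 4.16-fold (log2 fold change -2.06, SE 0.53, 95% interval -3.23 to -0.88, adjusted p = 0.0415, edgeR's quasi-likelihood test with Benjamini-Hochberg adjustment). In Tem1lacZ/lacZ mice Mlana was at 3.71, 18.3 and 10.2 CPM after sham and at 8.82, 13 and 7.45 CPM after traction, and the traction scars lay inside the range of the sham scars.

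Oca2 and Slc45a2 encode transport proteins of the melanosome membrane that keep its interior suited to tyrosinase, and their loss causes albinism. Oca2 (Entrez 18431, chr7:56239760-56536518, plus strand) was at 4.04, 22.2 and 8.24 CPM after sham and at 1.31, 5.21 and 3.29 CPM after traction in Tem1WT/WT mice. Its values in Tem1lacZ/lacZ mice were 0.0952, 12.3 and 5.37 CPM, and 6.75, 9.57 and 3.71 CPM. The lowest of these rests on 4 counts. Slc45a2 (Entrez 22293, chr15:11000721-11029233, plus strand) was at 3.34, 18.7 and 6.78 CPM and at 1.45, 3.95 and 2.57 CPM in Tem1WT/WT mice. In Tem1lacZ/lacZ mice Slc45a2 was at 0.666, 12.1 and 5.09 CPM after sham and at 5.25, 9.21 and 3.62 CPM after traction. Both genes overlapped between sham and traction in each genotype.

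**Figure D2:**
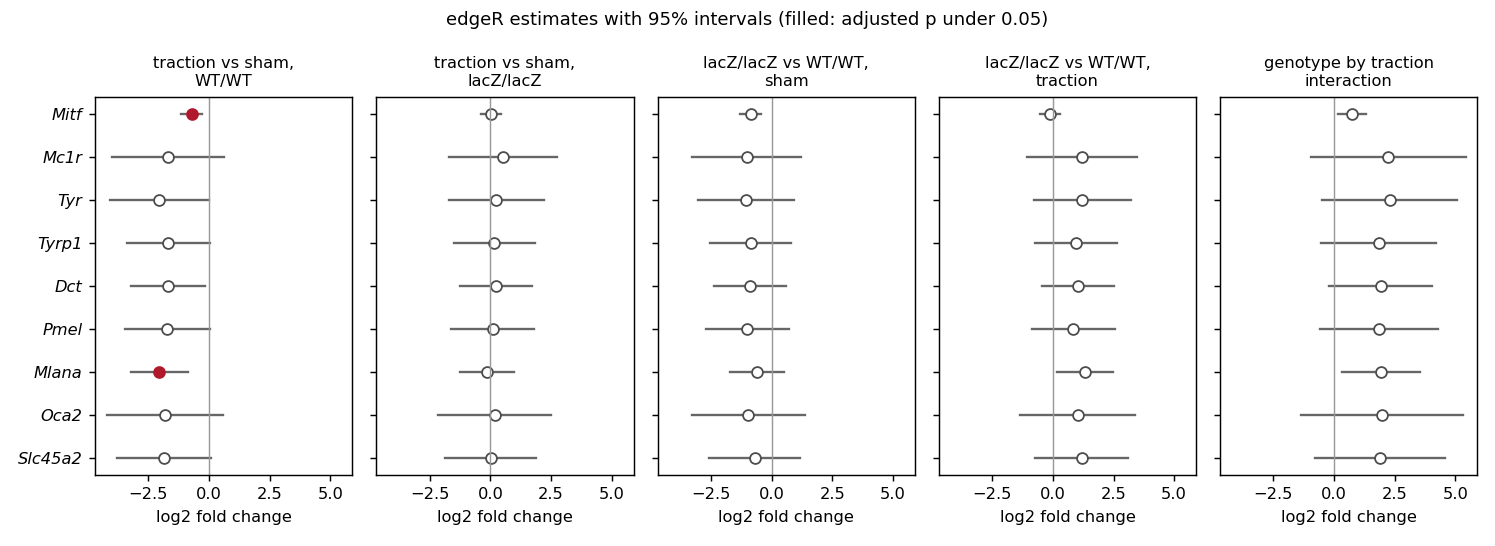
Estimated log2 fold changes of the 9 members (points) with 95% intervals (lines) from edgeR in 5 comparisons, filled where the adjusted p was under 0.05. Mlana (-2.06) and Mitf (-0.72) with traction in Tem1WT/WT mice are the filled points, and the intervals of the other members are several log2 units wide.

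With traction in Tem1WT/WT mice, an unadjusted p under 0.05 was found for 4 of 9 members, against 31.4% of all genes. The median log2 fold change was -1.73 for the members and -0.01 for all genes. The calls of Mlana and Mitf were close to the threshold. Neither was called when genes with at least 1 count were kept, by limma-voom, when only the libraries compared were fitted, or when 1 of 8 libraries was left out. These were each of the 3 Tem1WT/WT sham scars, Tem1WT/WT traction replicates 1 and 3, Tem1lacZ/lacZ sham replicate 3 and Tem1lacZ/lacZ traction replicates 2 and 3. Without Tem1lacZ/lacZ sham replicate 1 or 2, Mlana alone was called. With the 6 libraries compared, without sham replicate 1 and without sham replicate 2, 0 of all genes were called, against 1725 by the fit of all libraries, and the log2 fold change of Mlana was -2.06, -2.26 and -1.60. DESeq2, which called 4047 genes, called both and also Dct (adjusted p = 0.0463). All 9 estimates were negative in all 20 alternatives, and without Tem1WT/WT sham replicate 2, the highest scar for each member, the median was -0.90. The alternatives reuse the same scars and the members other than Mitf rose and fell together, so these signs are not separate observations.

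With traction in Tem1lacZ/lacZ mice, 0 of 9 members had an unadjusted p under 0.05 by edgeR, against 8.12% of all genes. DESeq2 called 0 members and 28 genes, and limma-voom 0 members and 435 genes. The median log2 fold change of the members was 0.15, with estimates from -0.14 for Mlana to 0.53 for Mc1r. Intervals were wide, from -1.60 to 1.81 for Pmel and from -1.72 to 2.19 for Tyr, and for Mitf from -0.40 to 0.43. The direction rested on single libraries. Without sham replicate 1 all 9 members were lower under traction, with a median of -0.31, without sham replicate 2 all 9 were higher, with a median of 1.03, and without traction replicate 2 the median was -0.12.

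**Figure D3:**
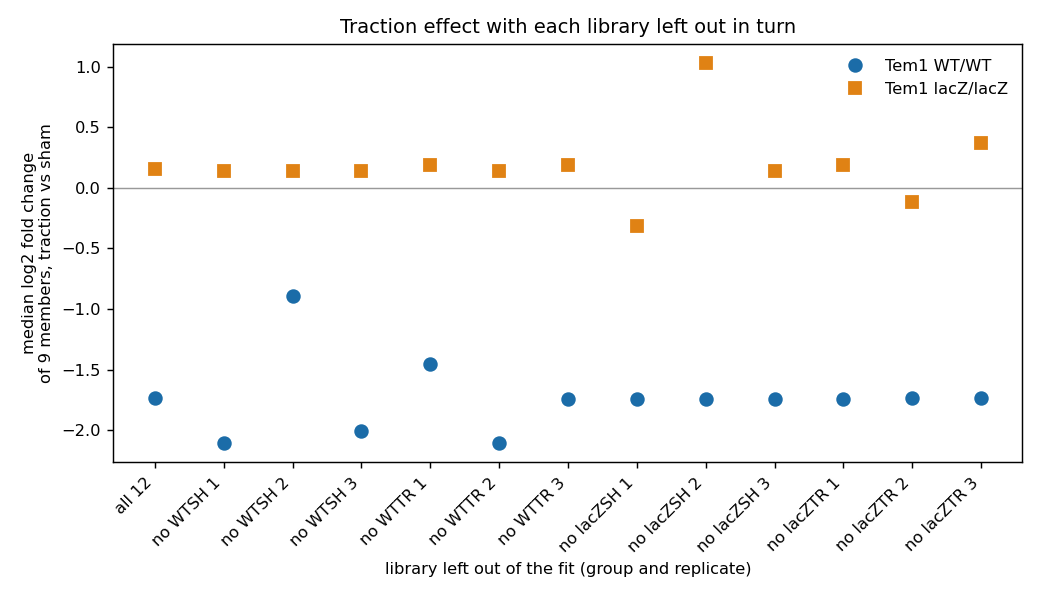
Median log2 fold change of the 9 members, traction against sham, with all 12 libraries and with each library left out in turn, as circles for Tem1WT/WT and squares for Tem1lacZ/lacZ mice. The circles stay below 0, from -2.11 to -0.90, and the squares lie on both sides of 0, from -0.31 to 1.03.

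The test of the difference between the genotypes is the interaction, in which a positive value means a smaller fall or a larger rise with traction in Tem1lacZ/lacZ mice. All 9 estimates were positive, with a median of 1.92, and 0 of 9 passed the threshold, as did 0% of all genes. Mitf had a value of 0.73 (SE 0.27, adjusted p = 0.548) and Mlana of 1.92 (SE 0.73, adjusted p = 0.548) in edgeR's quasi-likelihood test. Their unadjusted p-values in the same fit across all genes were 0.0198 and 0.0237, and 8.91% of all genes had an unadjusted p under 0.05. DESeq2 called 0 members and 69 genes, and limma-voom 0 members and 0 genes. Without Tem1WT/WT sham replicate 2 the median of the members was 1.05, and without Tem1lacZ/lacZ sham replicate 2 it was 2.76. A difference between the genotypes in the response of these genes was therefore not shown.

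Genotype was then compared within each treatment. These comparisons share their scars with those of traction and with the interaction, so they are no separate evidence. In sham scars all 9 members had lower estimates in Tem1lacZ/lacZ than in Tem1WT/WT mice, and their median was -0.89 on the log2 scale. Without Tem1WT/WT sham replicate 2 the median was -0.065 and 6 of 9 estimates were negative, without Tem1lacZ/lacZ sham replicate 1 it was -0.44, and without Tem1lacZ/lacZ sham replicate 2 it was -1.76. By edgeR 0 of 9 were called, against 0.0106% of all genes. Mitf had the smallest error and was without overlap, with 66.0 CPM in the lowest Tem1WT/WT scar and 43.7 CPM in the highest Tem1lacZ/lacZ scar. Its log2 fold change was -0.87 (SE 0.19, 95% interval -1.29 to -0.44, adjusted p = 0.409 in edgeR's quasi-likelihood test), and DESeq2, which called 43 genes, called it (adjusted p = 0.0327). It was the 1 member without overlap in the lower direction, where 13.8% of all genes had none.

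In traction scars 8 of 9 members had higher estimates in Tem1lacZ/lacZ mice, with a median of 1.03, and 0 of 9 were called, against 0.106% of all genes. Mlana had the smallest adjusted p, with a log2 fold change of 1.32 (SE 0.52, adjusted p = 0.150 in edgeR's quasi-likelihood test), and did not overlap between 5.48 CPM in the highest Tem1WT/WT scar and 7.45 CPM in the lowest Tem1lacZ/lacZ scar. No overlap in this direction was found in 12.9% of all genes. Mitf was at -0.13 (SE 0.19), the 1 negative estimate. With both genotypes pooled, traction called 0 members against 9.73% of all genes, with Mlana at -1.10 (SE 0.37, adjusted p = 0.0766). With both treatments pooled, genotype called 0 members against 0.053%, with Mitf at -0.50 (SE 0.14, adjusted p = 0.0727). These adjusted p-values are from edgeR's quasi-likelihood test.

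The scars differed from each other in these genes along a shared profile. All 9 members were highest in Tem1WT/WT sham replicate 2. Replicate 2 was also the highest scar within every group for each member but Mitf, which was highest in replicate 3 among the Tem1lacZ/lacZ traction scars. In 7 of 9 the lowest scar was Tem1lacZ/lacZ sham replicate 1, the exceptions being Mlana, lowest in Tem1WT/WT traction replicate 1, and Mitf, lowest in Tem1lacZ/lacZ traction replicate 1. Over the 12 libraries the 21 pairs among the 7 genes of the melanosome (Pmel, Tyr, Tyrp1, Dct, Mlana, Oca2 and Slc45a2) had Pearson correlations of log2 CPM between 0.770 and 0.994, with a median of 0.972. With the group means removed they were between 0.949 and 0.997, so the shared variation was found within groups. Mc1r followed these genes with correlations from 0.764 to 0.992. Mitf followed them less closely, with correlations from 0.408 to 0.548 with the other 8. Libraries are shared by all these values, which are given as a description.

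**Figure D4:**
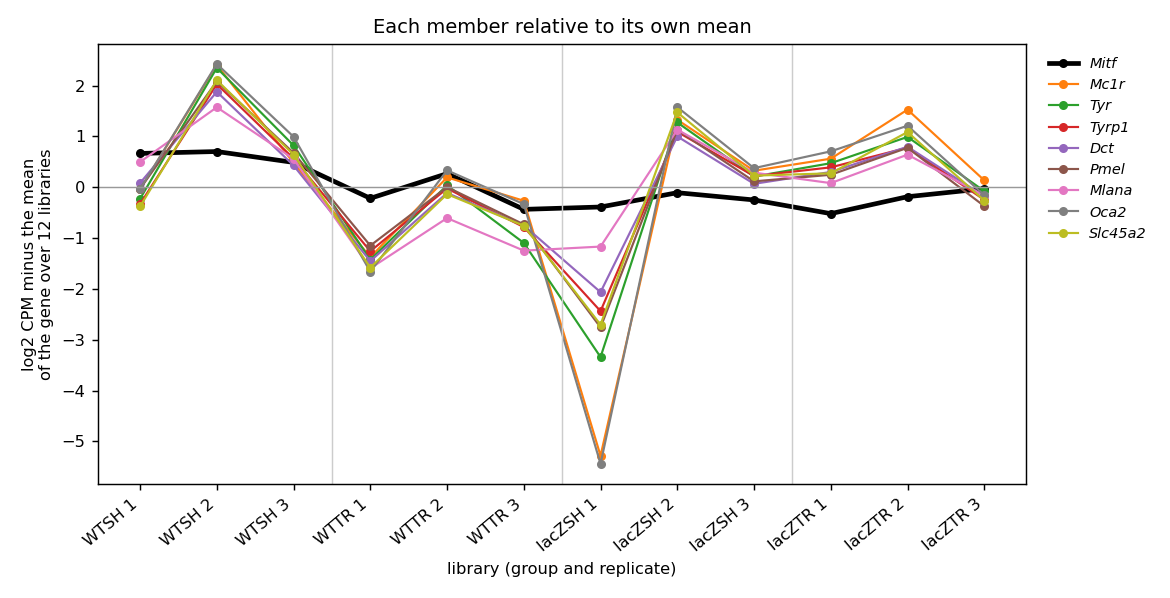
log2 CPM of each member minus its own mean over the 12 scars, with lines joining libraries in the order of groups and vertical lines between groups. The 8 other members rise and fall together, highest in Tem1WT/WT sham replicate 2, while Mitf (thick black line) is flatter.

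Other genes of the pathway were read from lists of known regulators, melanosome components and genes of melanosome transport. Of 19 regulators tested, 0 passed the threshold with traction in Tem1WT/WT or in Tem1lacZ/lacZ mice, against 9.15% and 0% of all genes. Pax3, which acts above Mitf, was between 1.39 and 2.15 CPM in Tem1WT/WT sham scars and between 0.205 and 0.972 CPM under traction (log2 fold change -1.79, SE 0.51, adjusted p = 0.0509 in edgeR's quasi-likelihood test). Sox10, the other activator of Mitf and also a Schwann cell gene, was at -0.63 (SE 0.37), and Kit, the receptor that melanocytes share with mast cells, at 0.16 (SE 0.22). Both ranges of CPM overlapped between the groups. With the genotypes pooled, 4 of 19 regulators were called, against 9.73% of all genes. Edn1 (-0.87, SE 0.21) and Irf4 (-1.40, SE 0.35) were lower, and the MITF relatives Tfe3 (0.53, SE 0.14) and Tfeb (0.45, SE 0.12) were higher. The highest regulators by CPM were Zeb2, Ednrb and Atrn, none of which was called.

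Over the 19 regulators the median correlation with the mean of the 7 melanosome genes was 0.156, and 6 of 19 were over 0.5. The highest was Edn3, a growth factor for melanocytes, at 0.937, followed by Corin, a protease of the dermal papilla that limits agouti signalling, at 0.885. Kitl, the ligand of KIT, was at 0.794 and agouti, listed as a, at 0.580, while Edn1, another growth factor for melanocytes, was at -0.239. None of these passed the threshold with traction in Tem1WT/WT mice, where Corin was at -1.81 (SE 0.56, adjusted p = 0.0610) and Edn3 at -1.22 (SE 0.67, adjusted p = 0.231) in edgeR's quasi-likelihood test.

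Of 30 genes for melanosome building, 1 was called with traction in Tem1WT/WT mice, against 9.15% of all genes. It was Cd63, which sorts PMEL but is made by most cells, and it rose from between 205 and 342 CPM to between 452 and 558 CPM (log2 fold change 0.96, SE 0.20, adjusted p = 0.0300 in edgeR's quasi-likelihood test). Pmel in the same comparison was at -1.73. Trpm1, Slc24a5 and Gpr143 followed the melanosome genes with correlations of 0.988, 0.986 and 0.963, and their log2 fold changes were -1.87, -1.90 and -1.85. None of the 3 passed the threshold. The rest, among them the melanosome trafficking genes Rab38 (0.231) and Rab32 (-0.544), had correlations of 0.530 or less. Gpnmb and Ap3d1, the most abundant after Cd63, had log2 fold changes of -0.78 (SE 0.36) and 0.49 (SE 0.15). Of 7 genes for melanosome transport 0 were called with traction in Tem1WT/WT mice, against the same 9.15%. Mlph, the melanosome adaptor of myosin Va, had the highest correlation, 0.735, and Myo5a, Rab11b and Sytl2, the most abundant, had 0.577 or less.

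The genes most like the mean of the 7 melanosome genes over the 12 libraries, members left out, were Trpm1 (0.988), Slc24a5 (0.986), Syt4 (0.982), Krt82 (0.971), Mycn (0.970), Ccdc155 (0.970), Ptgds (0.968), Lef1 (0.967), Tspan10 (0.966) and Gm10318 (0.963), by Pearson correlation of log2 CPM. Trpm1 and Slc24a5 are known pigment cell genes, while Krt82 is a keratin of the hair cuticle and Lef1 a transcription factor of the hair matrix. For Mc1r they were Gpr143 (0.985), Tspan10 (0.977) and Trpm1 (0.974). Mitf had others, Kat2b (0.930), Gucy2f (0.902) and Gabpb2 (0.898).

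Genes of the hair matrix and shaft moved with the members. Of 25 tested, all 25 were lower with traction in Tem1WT/WT mice, their median being -1.98 on the log2 scale, and 7 were called as lower, the hair keratins Krt34, Krt81 and Krt86, the inner root sheath genes Krt72 and Tchh, and Hoxc13 and Padi3. Of all genes, 3.54% were called as lower in that comparison. In Tem1lacZ/lacZ mice 0 of 25 were called, like 0% of all genes, with a median of -0.33. For the interaction 0 of 25 were called, like 0% of all genes, so a difference between the genotypes in these hair genes was not shown. Their correlations with the mean of the 7 melanosome genes were between 0.544 and 0.967, and 10 of 25 were over 0.9. Summed over the 25 genes, the level was 17881, 32115 and 17308 CPM in Tem1WT/WT sham scars and 4583, 8421 and 4639 CPM under traction. It was 4591, 25378 and 14551 CPM in Tem1lacZ/lacZ sham scars and 16557, 12625 and 9055 CPM under traction. Replicate 1 of the Tem1lacZ/lacZ sham group, low in pigment genes, was thus at the level of the Tem1WT/WT traction scars in hair genes too. No marker of the list was at 0 counts in any library.

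Set against the summed CPM of the hair genes, the Tem1WT/WT traction scars lay inside the range of their sham scars. This sum is weighted to its most abundant genes, Tchh and Krt71, with means of 4823 and 4046 CPM over the 12 scars. Krt25 came next with 1689 CPM. The 7 melanosome genes amounted to 1.11%, 2.65% and 1.82% of the summed hair CPM in Tem1WT/WT sham scars and to 1.83%, 2.40% and 2.62% under traction. In Tem1lacZ/lacZ scars the shares were 0.876%, 1.78% and 1.60% after sham and 1.59%, 2.91% and 1.96% after traction. The part of hair follicle content in the differences between groups was not tested, and the share was not used to adjust them.

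**Figure D5:**
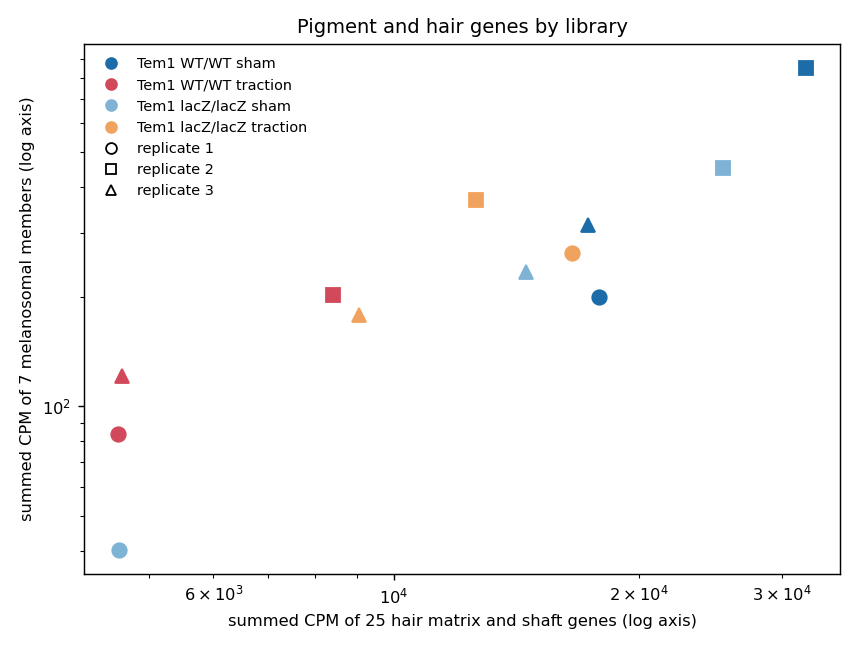
Summed CPM of the 7 melanosome genes against summed CPM of 25 hair matrix and shaft genes in each of the 12 scars, both on log axes, coloured by group with symbols for replicates. The 3 scars highest in pigment transcripts are replicate 2 of the Tem1WT/WT sham, Tem1lacZ/lacZ sham and Tem1lacZ/lacZ traction groups, and the 4 scars with the fewest hair transcripts are the 3 of Tem1WT/WT mice under traction and Tem1lacZ/lacZ sham replicate 1.

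Markers of other cells were counted in the same way for traction in Tem1WT/WT mice. Of all genes in this comparison, 9.15% were called in either direction and 3.54% as lower, and 31.4% had an unadjusted p under 0.05. In the hair stem cell list 2 of 7 were called as lower (Krt15 and Lhx2), and in the Schwann cell list, a lineage that shares Sox10 with melanocytes, 1 of 10 (Egr2). The mast cell list had 2 of 12 called as lower (Ms4a2 and Mrgprb2) and 1 as higher (Hdc), and the neutrophil list 5 of 9 as higher. Hdc was highest, at 1009 CPM, in traction replicate 1, the library with the highest sum of neutrophil markers. Of the fibroblast list 1 of 7 was called as higher, and of the macrophage, epidermal keratinocyte, adipocyte and skeletal muscle lists 0 were called. Estimates were nevertheless lower for all 5 skeletal muscle genes, with a median of -2.88 and an unadjusted p under 0.05 in each, for all 6 adipocyte genes, with a median of -1.29, and for 9 of 10 Schwann cell genes, with a median of -0.87. Skeletal muscle markers summed to between 617 and 7406 CPM after sham and between 165 and 1173 CPM after traction, with ranges that overlap. Schwann cell markers summed to between 120 and 183 CPM and between 76.8 and 108 CPM. The most abundant of them, Egr2, had group means of 68.2 CPM after sham and 29.9 CPM after traction. The next, Mbp, had means of 35.7 and 37.2 CPM. The part of these cell types in the differences of the members was not tested. Median correlations with the melanosome genes were 0.862 for the hair matrix and shaft list, 0.437 for the Schwann cell list, 0.220 for the epidermal keratinocyte list, 0.074 for the skeletal muscle list and -0.337 for the adipocyte list, and none of the 9 epidermal keratinocyte genes was over 0.5.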

How the data were processed

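The authors prepared stranded poly(A) libraries from scar RNA, trimmed reads with fastp 0.20.0, aligned them to GRCm38 with HISAT2 2.1.0 and counted reads on genes with featureCounts 2.0.0. They deposited whole-number counts per gene and library without normalization. The annotation, strand setting and handling of reads with several alignments are not given in the sources used here.

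Counts were analysed in R 4.3.3 with edgeR 4.0.16 (filterByExpr by group with a minimum count of 10, TMM, robust quasi-likelihood, 1 model of the 4 groups with 8 residual degrees of freedom), two-sided, with Benjamini-Hochberg adjustment over all 18853 genes and a threshold of 0.05. CPM are TMM-normalized. FPKM used merged exon lengths of GENCODE vM21. Correlations used log2 CPM with a prior count of 2. DESeq2 1.42.0, limma-voom (limma 3.58.1), other filters and factors, a replicate block and leaving out each library were alternatives. Scripts were tested on simulated data. Figures used matplotlib 3.10.9 in Python 3.11.15.

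Named were the 9 members, in 3 pathway lists (regulators, melanosome building, melanosome transport) the genes past the threshold and the 3 highest by CPM, and by likeness 10 genes for the melanosome mean and 3 each for Mitf and Mc1r. Other list genes were named after their values were seen. The members and lists were chosen with earlier results of these data known. Replicates are 3 mice per group, and same-numbered libraries are different mice.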

Additional observations from a re-analysis of the deposited data

How the results depend on the processing

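For traction in Tem1WT/WT mice, 2 members were called by edgeR. Over 20 alternatives the number was 0 in 11, 1 in 2, 2 in 6 and 3 in 1 (DESeq2), while the number of all genes called, 1725 by the main test, ranged from 0 to 4047 (DESeq2). It was 0 with genes of at least 1 count (adjusted p = 0.0565 for Mlana and 0.0566 for Mitf), 0 by limma-voom with sample weights (0.0973 and 0.0718), 0 with only the libraries of the groups compared (0.0761 and 0.103), and between 0 and 2 when 1 library was left out. These 3 settings called 1011, 748 and 0 of all genes. The cause of the losses was not tested. Under upper quartile factors the median of all genes was -0.12 and that of the members -1.83, a shift that left all 9 below the median of all genes.

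The sham comparison of genotypes called 1 member, Mitf, among 43 genes by DESeq2. Pooled over genotypes, traction called 1 member among 3850 genes by DESeq2 (1835 genes by edgeR) and between 0 and 1 when 1 library was left out, with 1 called without Tem1lacZ/lacZ sham replicate 1 or Tem1WT/WT traction replicate 2. Pooled over treatments, genotype called 1 member among 2993 genes by DESeq2 and 1 among 578 by limma-voom, against 10 genes by edgeR. Cd248 in traction scars was at -10.64 (adjusted p = 0.154) with only the libraries compared. The interaction called 0 members in all 19 alternatives.

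With the replicate number as a block, 2 members were called with traction in Tem1WT/WT mice (Mlana -2.03, Mitf -0.74). With traction pooled over genotypes 1 was called, and Mlana turned to 0.040 with traction in Tem1lacZ/lacZ mice. By edgeR's quasi-likelihood test, 7 members had an unadjusted p under 0.05 with traction in Tem1WT/WT mice, against 4 without the block. For the interaction these numbers were 7 and 2, with a median of 2.15 under the block, and 0 members and 0 of all genes were called. Same-numbered libraries of different groups correlated in their deviations from group means between -0.32 and 0.25, with 8 of 18 pairs above 0.1. For each member but Mitf, replicate 2 was the highest scar of its group in every group. The labels give only a replicate number, so whether same-numbered scars share a batch is not known.

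With traction in Tem1lacZ/lacZ mice, each of the 9 members changed sign in at least 1 alternative. Upper quartile factors turned Mitf to -0.028 and Slc45a2 to -0.030. Leaving out 1 library gave -0.38 to 1.02 for Pmel, -0.27 to 1.23 for Tyr, -0.31 to 0.97 for Tyrp1, -0.21 to 1.03 for Dct, -0.50 to 0.52 for Mlana, -0.11 to 0.19 for Mitf, -0.37 to 1.32 for Oca2, -0.47 to 1.10 for Slc45a2 and -0.0058 to 1.53 for Mc1r. Without Tem1WT/WT sham replicate 2 the genotype estimate in sham scars changed sign for 3 members, with ranges over the libraries of -1.67 to 0.061 for Tyrp1, -1.76 to 0.26 for Slc45a2 and -2.01 to 0.13 for Mc1r. Mitf between genotypes under traction ranged from -0.26 to 0.090. With 3 mice per group, wide intervals limit what can be shown for the members other than Mitf. The biological coefficient of variation common to all genes was 34.2%. Within groups, the CPM of these members varied by 29.7% (Mlana, Tem1lacZ/lacZ traction) to 103% (Oca2, Tem1lacZ/lacZ sham), and that of Mitf by 7.77% to 25.8%.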
